A study of Rattus norvegicus with 12 samples.

Results

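The genes described here are a set of 36 that take part in the interferon response and in antigen presentation by MHC class I, chosen by name. Of these, 35 were among the 28727 named genes of the count table, and Xaf1 was not analysed here. Their levels were compared as a check on innate responses that differ between the 2 adenoviruses of the study. The cells were INS-1 832/13, a clonal line of insulin-secreting cells from a rat insulinoma. They were transduced with an adenovirus for GFP, a fluorescent protein used as control, or for ChREBPβ, the short and constitutively active form of a glucose-responsive transcription factor. Each virus was combined with glucose at 2 or at 11 mM in a 48 h culture, which gave 4 groups (GFP 2 mM, GFP 11 mM, ChREBPβ 2 mM, ChREBPβ 11 mM) of 3 RNA-seq libraries, named a, b and c. All 4 groups carried a virus and none was uninfected, so a response shared by both viruses cannot be seen in these data. Per the methods, the viral ChREBPβ was tagged with mCherry, another fluorescent protein. Effects of the ChREBPβ protein, of its tag and of the virus itself, such as its dose, cannot be told apart. A change with ChREBPβ below means a difference between the libraries of the 2 viruses. The study describes its expression values as averages over independent experiments, and the labels give the libraries of a group only as a, b and c.

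Cells detect foreign nucleic acid with sensors such as Ifih1, Ddx58 and Tlr3, which signal through Irf3 and Irf7 to switch on interferon genes. Secreted interferon acts on receptors at the cell surface, and the ISGF3 complex, which contains Stat2 and Irf9, then binds the interferon-stimulated response element (ISRE) in the promoters of antiviral effectors. The same signal raises the genes that cut, transport and load peptides on MHC class I, and pancreatic β-cells that display more MHC class I are a known feature of type 1 diabetes.

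Library totals ranged from 25754488 to 60531215 counts, and levels are given as CPM, counts divided by the TMM-scaled library size. Depth differed between the viruses, with 25754488 to 46654823 counts for GFP and 28595982 to 60531215 for ChREBPβ. Each ChREBPβ library other than 2 mM a was deeper than every GFP library. Of the 35 genes, 32 had enough counts to be tested. The line's own markers were abundant (8 β-cell markers summed to between 11440 and 26341 CPM), and all 8 fell with ChREBPβ at both glucose concentrations. Of the 6 immune markers found, Ptprc had 0 counts in all 12 libraries, and their summed level was 0.513 to 0.719 CPM with GFP and 0.731 to 1.32 CPM with ChREBPβ. Of these, 2 passed the filter on low counts: Cd68, a macrophage and lysosome gene, rose at 2 mM (log2 fold change 1.04 ± 0.38 (SE), adjusted p = 0.0243, edgeR) and was not called at 11 mM (0.75 ± 0.34, adjusted p = 0.0774), and Csf1r, a macrophage growth factor receptor, was not called at either (-0.82 ± 0.74 and 0.39 ± 0.51). Fibroblast markers summed to at most 0.179 CPM and endothelial markers to at most 1.86 CPM. The part of these cell type markers in the results below was not tested, and in such bulk RNA fewer cells of a type and less RNA per cell cannot be told apart. Rat Mlxipl, the gene of ChREBP, fell at 2 mM (-0.33 ± 0.05 on the log2 scale). The viral ChREBPβ, a mouse sequence per the methods, was not visible in its count. Pklr, a known ChREBP target, rose 3.22-fold at 2 mM and 2.11-fold at 11 mM in the libraries labelled ChREBPβ, which are called ChREBPβ libraries by that label below.

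The set includes genes whose promoters carry the ISRE, and 9 of these promoters are shown because the genes below moved in both directions while sharing it. Promoter windows of 300 bases, 250 before and 50 after the start site, were taken from RefSeq on the GRCr8 assembly, and 27 of the 35 genes matched a single window. A search on both strands for the ISRE letters GAAANNGAAA found a match in 17 of the 27 (63%), against 3.92% of all 33469 windows and 2.83% of the windows of tested genes. The letters of the gamma-activated site (GAS), TTCNNNGAA, were found in 6 of the 27 (22.2%), against 8.87% of all windows. In the stretches below, written 5′ to 3′ towards the gene, capitals mark the ISRE match on either strand, and overlapping matches form 1 longer run. In Bst2 the GAS match overlaps the ISRE. The first 5 genes rose with ChREBPβ at 1 or both glucose concentrations and the last 4 fell.
Isg20, chr1:142239927-142240016, plus strand: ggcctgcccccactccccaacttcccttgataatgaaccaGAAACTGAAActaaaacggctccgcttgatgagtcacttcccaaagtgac
Irf7, chr1:205800043-205800132, minus strand: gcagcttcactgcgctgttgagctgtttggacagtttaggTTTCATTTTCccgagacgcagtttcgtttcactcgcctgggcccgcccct
Tap1, chr20:4668615-4668704, minus strand: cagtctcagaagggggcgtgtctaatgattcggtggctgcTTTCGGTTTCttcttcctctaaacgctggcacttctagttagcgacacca
B2m, chr3:129549140-129549229, plus strand: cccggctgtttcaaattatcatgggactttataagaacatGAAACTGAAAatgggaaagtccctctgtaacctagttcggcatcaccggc
Cxcl10, chr14:15988816-15988872, plus strand: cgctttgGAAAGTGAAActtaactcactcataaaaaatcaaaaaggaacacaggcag
Ifih1, chr3:67683978-67684067, minus strand: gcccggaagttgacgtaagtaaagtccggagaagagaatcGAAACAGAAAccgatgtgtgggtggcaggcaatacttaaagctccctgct
Oasl2, chr12:47383287-47383376, minus strand: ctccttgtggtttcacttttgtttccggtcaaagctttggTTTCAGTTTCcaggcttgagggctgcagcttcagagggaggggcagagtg
Bst2, chr16:18255049-18255138, minus strand: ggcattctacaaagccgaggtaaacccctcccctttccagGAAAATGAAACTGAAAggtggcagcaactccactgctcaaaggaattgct
Tapbp, chr20:4967878-4967943, minus strand: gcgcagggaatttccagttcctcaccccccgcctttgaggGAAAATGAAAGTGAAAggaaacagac

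**Figure D1:**
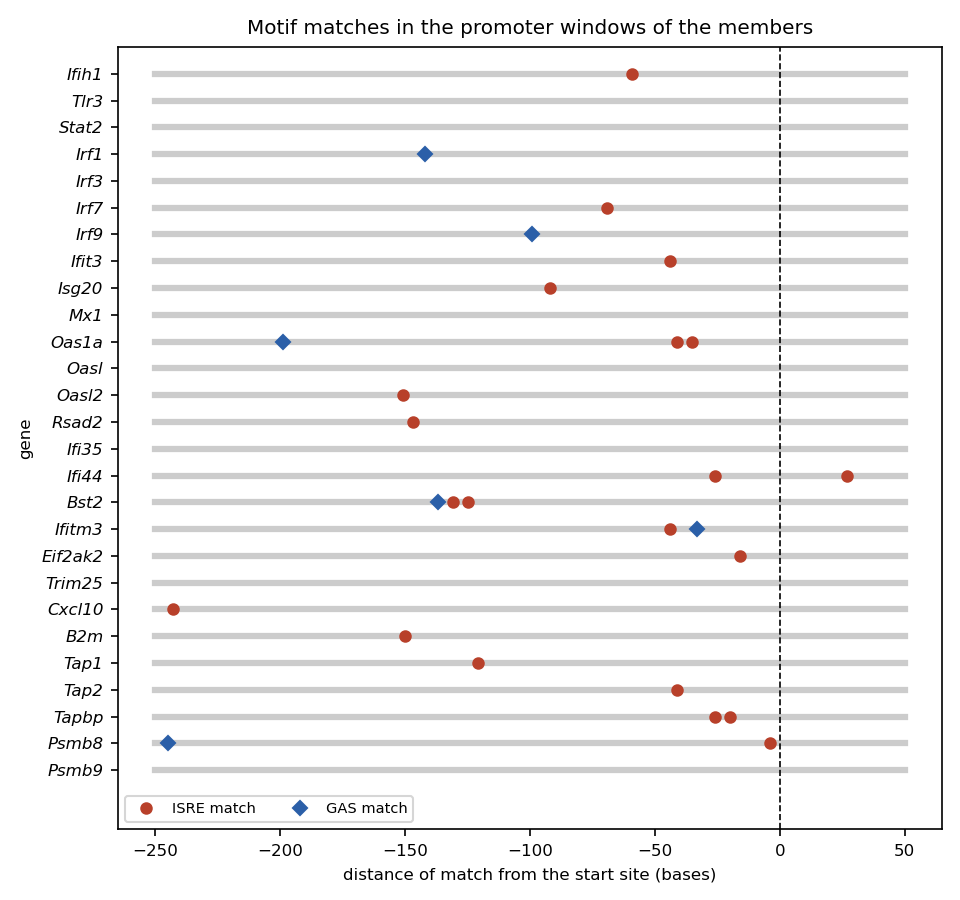
Position of ISRE matches (circles) and GAS matches (diamonds) in the promoter windows of the 27 genes with a single RefSeq window, as distance from the start site in bases. Of the tested genes with a window, an ISRE match was held at 2 mM by 4 of 5 called higher with ChREBPβ, 4 of 9 called lower and 7 of 11 not called, and at 11 mM by 6 of 7, 4 of 7 and 5 of 11.

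With ChREBPβ at 2 mM glucose, 19 of the 32 tested genes changed, 5 upwards and 14 downwards. A change was called at an adjusted p under 0.05 (edgeR's quasi-likelihood test, Benjamini-Hochberg over all 14669 genes tested) and at least 1.2-fold. Much of the transcriptome differed between the libraries of the 2 viruses, and 44.1% of all tested genes were called at 2 mM, against 59.4% of the set. By direction, the set had 43.8% lower against 23.2% of all genes, and 15.6% higher against 21% of all genes. The median log2 fold change was -0.26 over the set and -0.02 over all genes. With plain library totals as the scaling, which moved the median of all genes to -0.12, 3 genes of the set were called higher and 16 lower.

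At 11 mM glucose 17 of the 32 changed, 7 upwards and 10 downwards. These were 53.1% of the set, where 33.4% of all tested genes were called. Lower were 31.2% of the set against 19.1% of all genes, and higher 21.9% against 14.3%. The median was -0.18 over the set and -0.02 over all genes. Both directions were thus present at each glucose concentration. Isg20, Irf7, Mx1, Tap1 and Psmb8 were called higher at both, and Ifih1, Dhx58, Stat2, Irf3, Oasl2, Ifi35, Bst2, Usp18, Tapbp and Nlrc5 lower at both. Irf9, Mx2, Oasl and Isg15 were called lower at 2 mM, and Cxcl10 and B2m higher at 11 mM. The other 11 tested genes were called at neither.

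**Figure D2:**
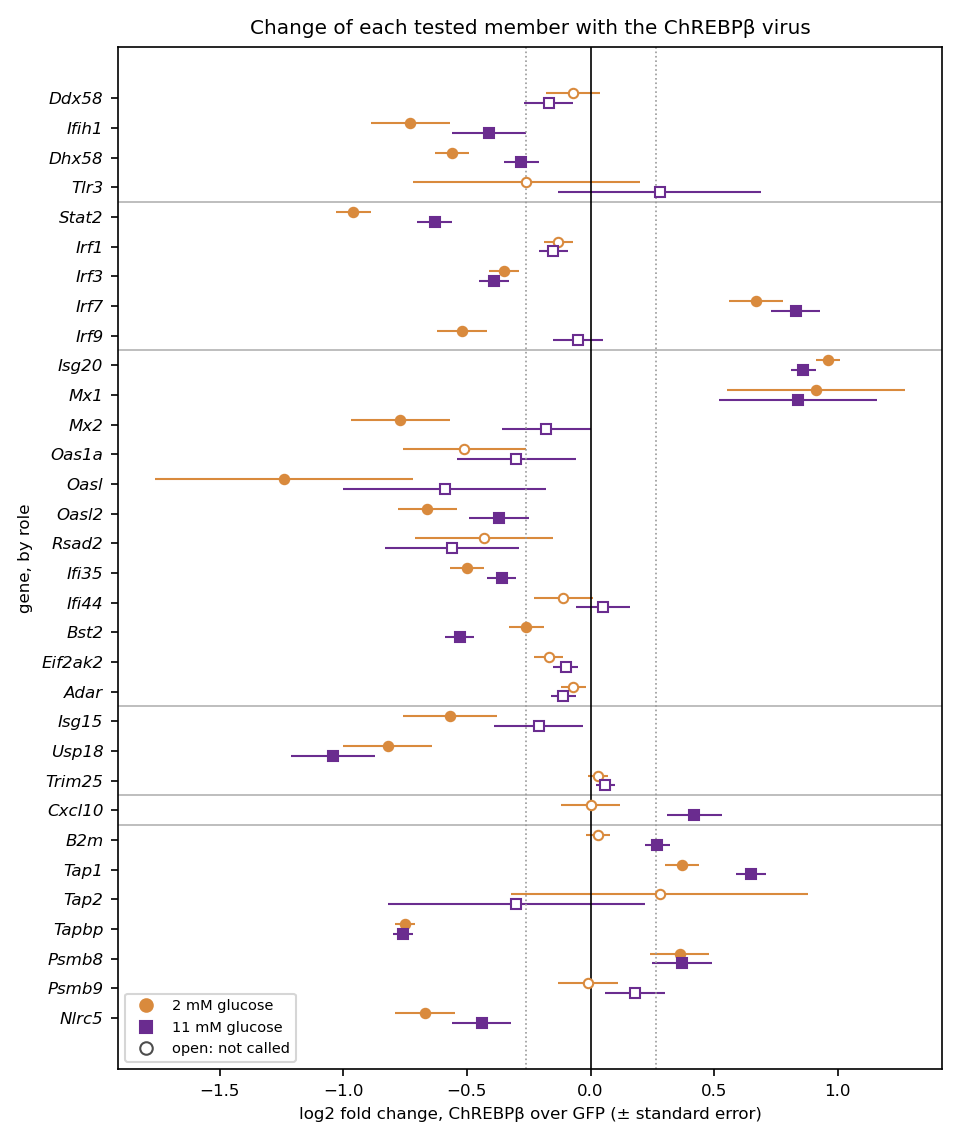
Log2 fold change of ChREBPβ over GFP (x axis, with SE as bars) for the 32 tested genes ordered by role, at 2 mM (circles) and 11 mM glucose (squares). Filled symbols passed the call and open ones did not, and dotted lines mark 1.2-fold. Values ran from -1.24 (Oasl) to 0.96 (Isg20) at 2 mM and from -1.04 (Usp18) to 0.86 (Isg20) at 11 mM.

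Of the 4 sensors of foreign RNA, 2 fell at both glucose concentrations and 2 were not called (50%, against 44.1% and 33.4% of all tested genes). Ifih1, which encodes MDA5, the sensor of long double-stranded RNA, stood at 5.70, 7.35 and 5.96 CPM in the GFP libraries a, b and c at 2 mM and at 5.0, 6.21 and 5.27 CPM at 11 mM. Its ChREBPβ libraries, given in the same order here and below, held 3.11, 4.87 and 3.31 CPM at 2 mM and 4.62, 4.03 and 3.73 CPM at 11 mM. All ChREBPβ libraries were below all GFP libraries at the same glucose, with log2 fold changes of -0.73 ± 0.16 (adjusted p = 5.94e-04) at 2 mM and -0.41 ± 0.15 (adjusted p = 0.033) at 11 mM. The call at 11 mM was lost without GFP 11 mM b (-0.31, adjusted p = 0.124) or c (-0.43, 0.0505) and without ChREBPβ 11 mM b (-0.39, 0.0829) or c (-0.34, 0.116).

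Dhx58 encodes LGP2, a relative of the sensors that modulates their signal. It measured 24.5, 20.9 and 21.7 CPM in the GFP libraries and 14.4, 15.5 and 15.2 CPM in the ChREBPβ libraries at 2 mM. At 11 mM the GFP libraries held 14, 15.3 and 14.2 CPM and the ChREBPβ libraries 11.7, 12.5 and 11.7 CPM. The groups did not overlap, and the fall was 0.676-fold at 2 mM (log2 fold change -0.56 ± 0.07, adjusted p = 1.22e-06) and 0.825-fold at 11 mM (-0.28 ± 0.07, adjusted p = 0.00319). The value at 11 mM lay close to the 1.2-fold limit and dropped under it without GFP 11 mM b (-0.24) or ChREBPβ 11 mM a (-0.26), and with DESeq2 (-0.26). Ddx58, which encodes the sensor RIG-I, differed by -0.07 ± 0.11 at 2 mM and -0.17 ± 0.10 at 11 mM on the log2 scale, with group means between 6.50 and 7.41 CPM. Tlr3, an endosomal sensor of double-stranded RNA, had only 6 to 41 counts per library, and with log2 fold changes of -0.26 ± 0.46 and 0.28 ± 0.41 no difference was detectable at this depth.

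Among the 5 transcription factors, Stat2 had the largest fall and Irf7 the only rise, and 4 were called at 2 mM and 3 at 11 mM (80% and 60%, against 44.1% and 33.4% of all tested genes). Stat2, a subunit of ISGF3, measured 28.3, 28.5 and 28.5 CPM in the GFP libraries at 2 mM and 15, 15.4 and 13.4 CPM with ChREBPβ. The 11 mM libraries held 18.9, 19.7 and 18.8 CPM with GFP and 12.6, 13.3 and 11.2 CPM with ChREBPβ. The ChREBPβ libraries at either glucose concentration were lower than all 6 GFP libraries. The log2 fold change was -0.96 ± 0.07 at 2 mM (adjusted p = 5.73e-10, a fall to 0.513-fold) and -0.63 ± 0.07 at 11 mM (adjusted p = 3.95e-07, to 0.648-fold).

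Irf9, the DNA-binding subunit of ISGF3, was at 11.4, 11.7 and 11.7 CPM in the GFP libraries at 2 mM, above the other 9 libraries. The ChREBPβ libraries at 2 mM held 9.31, 6.84 and 8.40 CPM, those with GFP at 11 mM 8.65, 7.82 and 7.93 CPM, and those with ChREBPβ at 11 mM 7.93, 7.88 and 7.72 CPM. With ChREBPβ it fell at 2 mM (log2 fold change -0.52 ± 0.10, adjusted p = 1.34e-04), and at 11 mM, where the groups overlapped, the difference was -0.05 ± 0.10 (adjusted p = 0.671). Irf3, the factor that responds first to the sensors, measured 25.8, 29.6 and 27.5 CPM in the GFP libraries and 20.9, 22.9 and 21.3 CPM in the ChREBPβ libraries at 2 mM. Its levels at 11 mM were 23.7, 22.7 and 24.4 CPM for GFP and 18.3, 18.2 and 17.8 CPM for ChREBPβ. It fell without overlap at 2 mM (-0.35 ± 0.06, adjusted p = 8.03e-05) and at 11 mM (-0.39 ± 0.06, adjusted p = 3.03e-05).

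Irf7, the interferon-inducible factor that amplifies interferon production, moved the other way. Its GFP libraries held 4.23, 5.07 and 5.83 CPM at 2 mM and 5.46, 5.06 and 4.99 CPM at 11 mM. With ChREBPβ it was at 7.45, 8.68 and 7.97 CPM at 2 mM and 8.63, 9.44 and 9.63 CPM at 11 mM, above every GFP library. The rise was 1.59-fold at 2 mM (log2 fold change 0.67 ± 0.11, adjusted p = 3.73e-05) and 1.78-fold at 11 mM (0.83 ± 0.10, adjusted p = 1.65e-06). Irf1, a factor induced mainly by interferon-γ, was 27.9 ± 1.8 CPM (SD, n = 3) with GFP and 25.5 ± 1.0 CPM with ChREBPβ in 2 mM glucose, and 28.6 ± 0.54 against 25.8 ± 0.31 CPM at 11 mM. It was not called at either, its adjusted p at 11 mM being 0.0352 (edgeR) with a change under 1.2-fold.

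**Figure D3:**
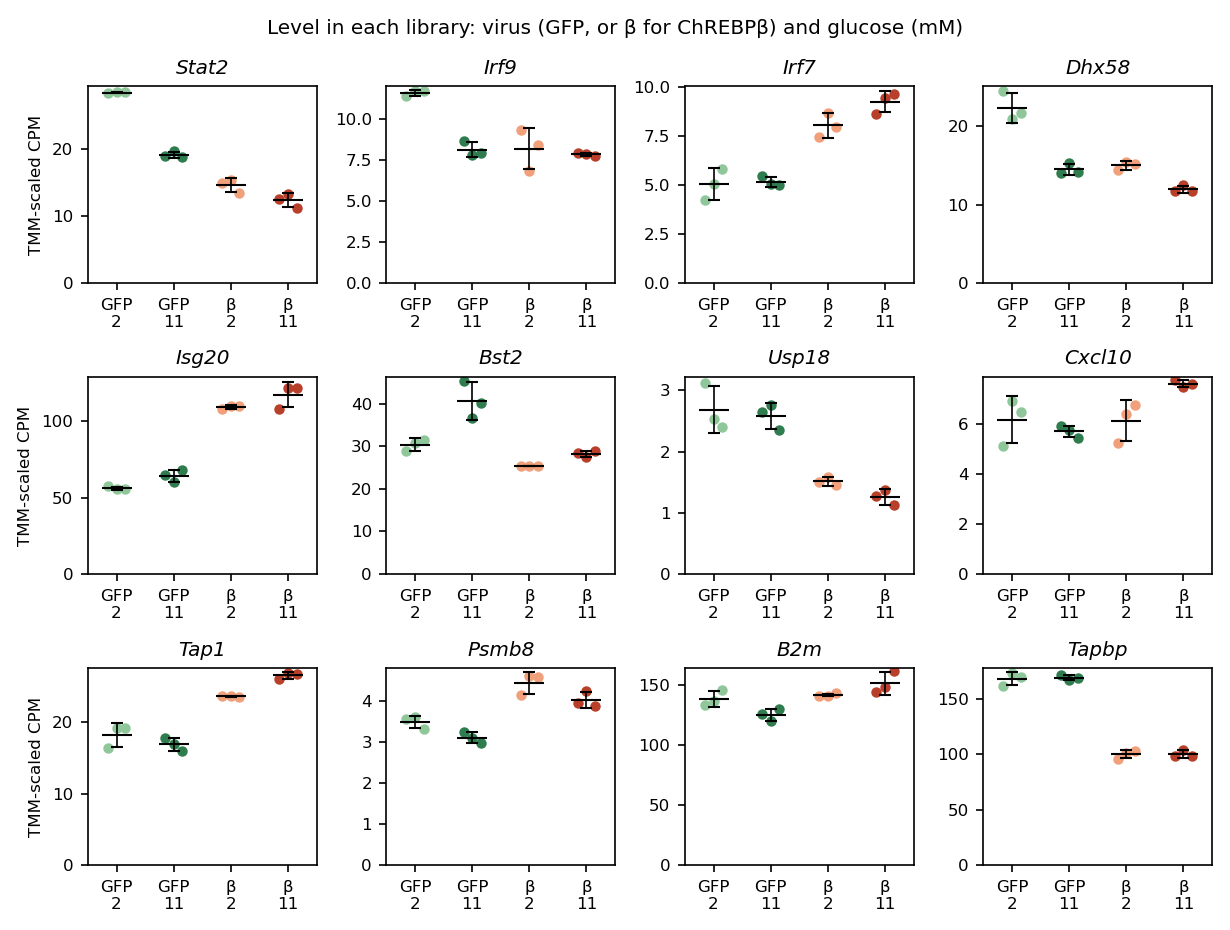
TMM-scaled CPM of 12 genes in each library (points), with the group mean and SD (bars, n = 3), for GFP and ChREBPβ (β) at 2 and 11 mM glucose. Isg20, Irf7 and Tap1 were higher in every ChREBPβ library than in every GFP library, and Tapbp, Stat2 and Usp18 were lower in every one.

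Antiviral effectors, the proteins that block steps of viral replication, were the largest group with 15 genes in the table and 12 tested. At 2 mM 2 of the 12 rose and 5 fell (58.3%, against 44.1% of all tested genes), and at 11 mM 2 rose and 3 fell (41.7% against 33.4%). Isg20, an exonuclease that degrades RNA, rose in the clearest manner. It measured 57.3, 55.4 and 55.6 CPM in the GFP libraries and 108, 110 and 110 CPM in the ChREBPβ libraries at 2 mM, and 65.0, 60.2 and 67.8 CPM against 108, 122 and 122 CPM at 11 mM. Its groups were far apart, with rises of 1.95-fold (log2 fold change 0.96 ± 0.05, adjusted p = 7.72e-12) and 1.82-fold (0.86 ± 0.05, adjusted p = 4.06e-11). Mx1, a GTPase that traps viral components, averaged under 1 CPM, with 8 to 59 counts per library. Its mean was 0.462 ± 0.25 CPM (SD, n = 3) with GFP and 0.816 ± 0.26 CPM with ChREBPβ in 2 mM glucose, where the groups overlapped, and 0.514 ± 0.053 against 0.922 ± 0.086 CPM at 11 mM. It passed the call narrowly (adjusted p = 0.0337 and 0.0351) and lost it with library totals (0.0567 and 0.0557). Leaving out single libraries also ended it: GFP 2 mM b or c or ChREBPβ 2 mM b or c at 2 mM, down to a log2 fold change of 0.57 (adjusted p = 0.197), and each GFP library or ChREBPβ a or c at 11 mM, with adjusted p up to 0.0973.

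Mx2, the paralogue of Mx1, measured 2.57, 2.71 and 2.28 CPM in the GFP libraries and 1.11, 1.85 and 1.34 CPM in the ChREBPβ libraries at 2 mM. In 11 mM glucose the values came to 2.50, 2.78 and 2.33 CPM for GFP and 2.49, 1.79 and 2.40 CPM for ChREBPβ. It fell without overlap at 2 mM (log2 fold change -0.77 ± 0.20, adjusted p = 0.00268), and at 11 mM the groups overlapped (-0.18 ± 0.18, adjusted p = 0.42). Reads of related genes such as Mx1 and Mx2, or Oas1a, Oasl and Oasl2, may have been split between them in counting, so their levels are less certain. Strand was not stated for the counting, so reads of overlapping genes cannot be told apart.

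Oas1a, Oasl and Oasl2 belong to the oligoadenylate synthetase family, whose active members make the signal for RNase L. Oasl2 measured 5.62, 7.43 and 7.53 CPM in the GFP libraries and 4.22, 4.65 and 4.19 CPM in the ChREBPβ libraries at 2 mM. At 11 mM the values were 5.40, 5.11 and 5.31 CPM with GFP and 4.35, 3.93 and 3.93 CPM with ChREBPβ. The groups did not overlap at either, with log2 fold changes of -0.66 ± 0.12 (adjusted p = 9.48e-05) and -0.37 ± 0.12 (adjusted p = 0.0119). Oasl was near the lower limit of the test with 2 to 28 counts per library, and fell at 2 mM from 0.383 ± 0.13 to 0.149 ± 0.081 CPM (-1.24 ± 0.52, adjusted p = 0.0452). That call was lost without GFP 2 mM b or c, GFP 11 mM a or c, or ChREBPβ 2 mM a or b, with values from -0.99 (adjusted p = 0.177) to -1.26 (0.0853). Oas1a was not called, at -0.51 ± 0.25 (adjusted p = 0.0878) and -0.30 ± 0.24 (adjusted p = 0.325), although its groups did not overlap at 2 mM. It was called at 2 mM with library totals (-0.61, adjusted p = 0.0428) and without ChREBPβ 2 mM b (-0.76, 0.0274).

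Ifi35, an interferon-induced regulator of innate signalling, measured 24.8, 25.6 and 27.4 CPM in the GFP libraries and 17.2, 18.9 and 18.9 CPM in the ChREBPβ libraries at 2 mM. The 11 mM libraries held 25.7, 22.4 and 24.1 CPM with GFP and 18.8, 19.3 and 18.2 CPM with ChREBPβ. Every ChREBPβ library was below every GFP library, with log2 fold changes of -0.50 ± 0.07 (adjusted p = 2.51e-06) and -0.36 ± 0.06 (adjusted p = 1.03e-04). Bst2 encodes tetherin, which holds budding virus particles at the cell surface. Its GFP libraries held 28.8, 30.9 and 31.6 CPM at 2 mM, and each ChREBPβ library held 25.4 CPM. Its levels at 11 mM were 45.3, 36.6 and 40.1 CPM for GFP and 28.5, 27.4 and 28.8 CPM for ChREBPβ. It fell without overlap at 11 mM (-0.53 ± 0.06, adjusted p = 9.97e-07). At 2 mM its log2 fold change of -0.26 ± 0.07 (adjusted p = 0.00243) sat on the 1.2-fold limit, and the call was lost when any library other than GFP 2 mM a was left out, with values from -0.26 to -0.23.

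The remaining effectors in the test were not called. Eif2ak2 encodes PKR, the kinase that halts translation when it binds double-stranded RNA, and was at 64.4 ± 4.4 CPM with GFP and 57.3 ± 2.1 CPM (SD, n = 3) with ChREBPβ in 2 mM glucose. Its log2 fold change of -0.17 ± 0.06 had an adjusted p of 0.0131 (edgeR) but was under 1.2-fold, and at 11 mM it was -0.10 ± 0.05. With library totals it was called at 2 mM (-0.27, adjusted p = 6.10e-04). Adar, an editor of double-stranded RNA, differed by -0.07 ± 0.05 and -0.11 ± 0.05 with group means between 78.7 and 84.7 CPM. Ifi44, an interferon-induced protein, differed by -0.11 ± 0.12 and 0.05 ± 0.11. Rsad2 encodes viperin and had 15 to 45 counts per library, with values of -0.43 ± 0.28 and -0.56 ± 0.27 (adjusted p = 0.0928 at 11 mM). Its ChREBPβ libraries were below its GFP libraries at both glucose concentrations, at 2 mM only narrowly (at most 0.806 against at least 0.808 CPM). Ifit2, Ifit3 and Ifitm3 are usually among the strongest interferon-induced genes, and here they had 7, 1 and 2 counts over all 12 libraries and were not tested. Of their relatives outside the set, Ifit1 had 10 counts. Ifitm2 averaged 219 CPM and rose with ChREBPβ by 0.65 ± 0.06 at 2 mM and 0.46 ± 0.06 at 11 mM on the log2 scale. Ifitm1 rose by 1.15 ± 0.17 and 1.21 ± 0.15. Reads of such relatives may also have been shared in counting.

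Of the 3 genes of the ubiquitin-like modifier and its regulators, 2 fell at 2 mM and 1 at 11 mM (66.7% and 33.3%, against 44.1% and 33.4% of all tested genes). Isg15, the modifier itself, measured 2.61, 2.10 and 2.40 CPM in the GFP libraries and 1.47, 1.53 and 1.72 CPM in the ChREBPβ libraries at 2 mM. In 11 mM glucose the values came to 1.95, 1.5 and 1.65 CPM for GFP and 1.33, 1.72 and 1.37 CPM for ChREBPβ. The groups stood apart at 2 mM (log2 fold change -0.57 ± 0.19, adjusted p = 0.0123) and overlapped at 11 mM (-0.21 ± 0.18, adjusted p = 0.36). Without GFP 2 mM a the value at 2 mM was -0.50 (adjusted p = 0.0503).

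Usp18 removes Isg15 from proteins and restrains the type I interferon receptor. With GFP it was at 3.12, 2.54 and 2.40 CPM at 2 mM and 2.65, 2.76 and 2.35 CPM at 11 mM. With ChREBPβ it was at 1.5, 1.59 and 1.45 CPM at 2 mM and 1.28, 1.37 and 1.12 CPM at 11 mM. All ChREBPβ libraries were lower than all GFP libraries, at 0.566-fold (-0.82 ± 0.18, adjusted p = 4.72e-04) and 0.487-fold (-1.04 ± 0.17, adjusted p = 3.77e-05). Trim25, the ubiquitin ligase that activates RIG-I, differed by 0.03 ± 0.04 and 0.06 ± 0.04 on the log2 scale, with group means between 73.4 and 77.0 CPM.

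Cxcl10, the single chemokine of the set, attracts T cells and is a standard readout of interferon-γ. It measured 5.11, 6.94 and 6.51 CPM in the GFP libraries and 5.23, 6.42 and 6.79 CPM in the ChREBPβ libraries at 2 mM. The 11 mM libraries held 5.91, 5.78 and 5.46 CPM with GFP and 7.76, 7.51 and 7.61 CPM with ChREBPβ. The groups overlapped at 2 mM (log2 fold change 0.00 ± 0.12, adjusted p = 0.992). At 11 mM it rose 1.33-fold without overlap (0.42 ± 0.11, adjusted p = 0.00406), while the difference between the effects at 11 and 2 mM did not pass (0.41 ± 0.16, adjusted p = 0.136). Cxcl11, a chemokine outside the set, was lower with ChREBPβ, at 2.62 ± 0.24 CPM against 5.02 ± 1.1 CPM with GFP at 2 mM. At 11 mM Cxcl11 was at 2.57 ± 0.22 CPM with ChREBPβ and 4.41 ± 0.7 CPM with GFP.

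Of the 7 antigen presentation genes, Tap1 and Psmb8 rose and Tapbp and Nlrc5 fell at both glucose concentrations, and B2m rose at 11 mM (57.1% and 71.4% called, against 44.1% and 33.4% of all tested genes). Tap1, a subunit of the transporter that carries peptides into the endoplasmic reticulum, measured 16.3, 19.2 and 19.1 CPM in the GFP libraries and 23.7, 23.6 and 23.5 CPM in the ChREBPβ libraries at 2 mM. Its levels at 11 mM were 17.8, 16.9 and 15.9 CPM for GFP and 26.0, 26.9 and 26.7 CPM for ChREBPβ. Every ChREBPβ library was above every GFP library, with log2 fold changes of 0.37 ± 0.07 (adjusted p = 8.66e-05) and 0.65 ± 0.06 (adjusted p = 5.93e-08). Tap2, the other subunit, had only 2 to 22 counts per library, and with 0.28 ± 0.60 and -0.30 ± 0.52 no difference was detectable.

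Tapbp encodes tapasin, which bridges the transporter and MHC class I for peptide loading. It measured 162, 173 and 170 CPM in the GFP libraries and 95.9, 101 and 103 CPM in the ChREBPβ libraries at 2 mM. At 11 mM the values were 172, 167 and 169 CPM with GFP and 98.1, 104 and 98.3 CPM with ChREBPβ. The 2 viruses gave levels far apart, at 0.594-fold (-0.75 ± 0.04, adjusted p = 1.06e-11) and 0.591-fold (-0.76 ± 0.04, adjusted p = 1.11e-11), and within the GFP groups glucose moved it by 0.01 ± 0.04 on the log2 scale.

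Psmb8 and Psmb9 encode subunits of the immunoproteasome, the form of the proteasome that cuts peptides suited to MHC class I. Psmb8 measured 3.56, 3.61 and 3.33 CPM in the GFP libraries and 4.15, 4.63 and 4.60 CPM in the ChREBPβ libraries at 2 mM. In 11 mM glucose the values came to 3.25, 3.11 and 2.98 CPM for GFP and 3.96, 4.26 and 3.88 CPM for ChREBPβ. It rose without overlap at both, by 0.36 ± 0.12 (adjusted p = 0.0155) and 0.37 ± 0.12 (adjusted p = 0.0114) on the log2 scale. The call at 2 mM was lost with library totals (0.26, adjusted p = 0.0694) and without ChREBPβ 2 mM b (0.33, adjusted p = 0.0513). Psmb9, which neighbours Tap1 in the RefSeq annotation, differed by -0.01 ± 0.12 and 0.18 ± 0.12 and was not called. It was called at 11 mM without GFP 11 mM a (0.32, adjusted p = 0.0375) or ChREBPβ 11 mM a (0.30, adjusted p = 0.035).

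B2m encodes β2-microglobulin, the invariant chain of MHC class I. At 2 mM it measured 133, 137 and 146 CPM in the GFP libraries and 141, 141 and 143 CPM in the ChREBPβ libraries, which overlapped (log2 fold change 0.03 ± 0.05, adjusted p = 0.591). The 11 mM libraries held 126, 120 and 130 CPM with GFP and 144, 148 and 162 CPM with ChREBPβ. It rose there 1.21-fold without overlap (0.27 ± 0.05, adjusted p = 1.06e-04), just past the 1.2-fold limit. It was under the limit without GFP 11 mM b (0.24) or ChREBPβ 11 mM c (0.22) and with library totals (0.19). Nlrc5, the transactivator of MHC class I genes, measured 6.65, 5.66 and 6.09 CPM in the GFP libraries and 4.40, 3.44 and 3.87 CPM in the ChREBPβ libraries at 2 mM. Its levels at 11 mM were 4.27, 4.95 and 4.38 CPM for GFP and 3.17, 3.53 and 3.27 CPM for ChREBPβ. It fell without overlap at 2 mM (-0.67 ± 0.12, adjusted p = 1.22e-04) and at 11 mM (-0.44 ± 0.12, adjusted p = 0.00508).

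**Figure D4:**
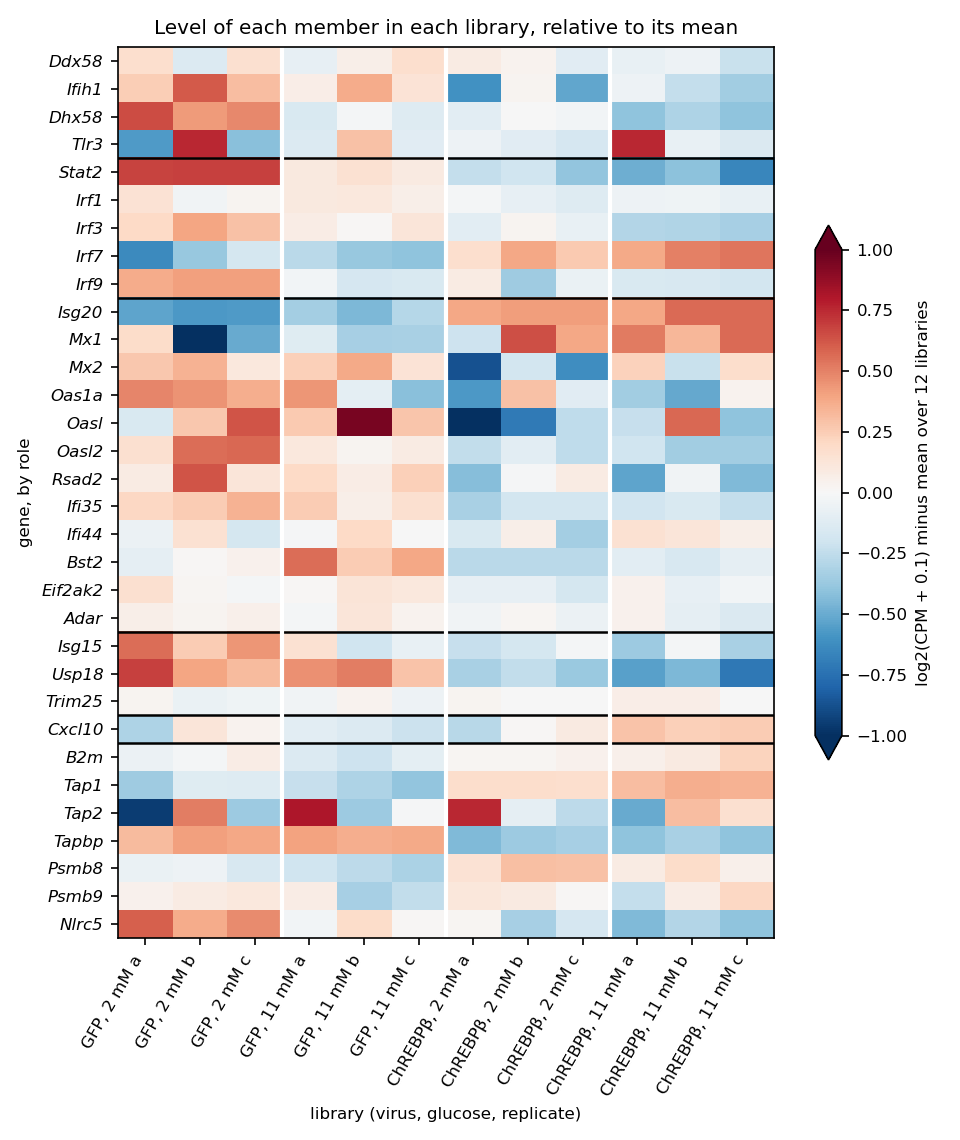
Level of each of the 32 tested genes (rows, by role) in each of the 12 libraries (columns), as log2(CPM + 0.1) minus the gene's mean over the libraries, with red for higher and blue for lower. Isg20 and Irf7 were high in the ChREBPβ libraries, Tapbp and Usp18 were low in them, and Stat2, Dhx58 and Irf9 were highest in the 3 GFP libraries at 2 mM.

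Glucose alone, in cells with the GFP virus, changed 6 of the 32 genes between 2 and 11 mM. This was 18.8% of the set, against 20.2% of all tested genes, a share near the background. Dhx58 fell from 22.4 ± 1.9 to 14.5 ± 0.70 CPM (SD over 3 libraries), which is -0.62 ± 0.07 on the log2 scale (adjusted p = 1.74e-06, edgeR). Stat2 fell by 0.57 on the log2 scale (adjusted p = 3.22e-06), Irf9 by 0.51 (adjusted p = 4.07e-04), Nlrc5 by 0.44 (adjusted p = 0.00912) and Oasl2 by 0.38 (adjusted p = 0.0155). Bst2 was the single gene that rose, by 0.42 ± 0.07 (adjusted p = 5.88e-05). Oasl2 lost its call without GFP 2 mM b or c (-0.32 in both, adjusted p = 0.0784 and 0.0748). This comparison and that of the viruses at 2 mM share the GFP 2 mM libraries.

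In cells with the ChREBPβ virus, glucose changed 2 of the 32 genes (6.25%, against 3.87% of all tested genes). Dhx58 fell from 15 ± 0.54 to 12 ± 0.48 CPM (-0.33 ± 0.07, adjusted p = 0.00612). Irf3 fell from 21.7 ± 1.1 to 18.1 ± 0.22 CPM, and its -0.26 ± 0.06 (adjusted p = 0.0111) sat on the 1.2-fold limit. It was not called without ChREBPβ 2 mM b (-0.22, adjusted p = 0.0745) or ChREBPβ 11 mM c (-0.25, adjusted p = 0.0481), nor with DESeq2. Mx2 was called higher only under alternatives, by 0.61 with DESeq2 (adjusted p = 0.0328) and by up to 0.83 without ChREBPβ 2 mM b (adjusted p = 0.0274), against 0.59 ± 0.19 (adjusted p = 0.0667) with all libraries.

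The effect of ChREBPβ differed between the glucose concentrations for 2 of the 32 genes (6.25%, against 6.31% of all tested genes), a share near the background. These were Stat2 and Irf9, both subunits of ISGF3. The difference of the log2 fold changes, 11 mM minus 2 mM, was 0.34 ± 0.10 for Stat2 (adjusted p = 0.0438) and 0.47 ± 0.14 for Irf9 (adjusted p = 0.0402). B2m had a smaller adjusted p (0.24 ± 0.07, adjusted p = 0.0365, edgeR) but was not called, its difference being under 1.2-fold. Stat2 fell with ChREBPβ at both concentrations, by more at 2 mM, and Irf9 fell at 2 mM and was not called at 11 mM. Neither call was firm: leaving out 1 library at a time, Stat2 was lost in 9 of 12 cases (adjusted p up to 0.144 without ChREBPβ 2 mM c) and Irf9 in 10 of 12 (up to 0.123 without ChREBPβ 2 mM b).

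Beyond the set, the interferon genes looked up were almost absent from the counts at 48 h, the only time sampled. Other interferon genes were not examined. Ifnb1, Ifna2, Ifna4, Ifne, Ifng, Ifnl1 and Ifnl3 had 0 counts in all 12 libraries, which allows a level of up to 0.110 CPM in the shallowest library (3 counts, counting error only). Ifnk had 14 counts over the 12 libraries. The 15 tested genes of this list held no ligand, but receptors, kinases, Stat and Socs genes and phosphatases. Of these 15, 3 rose and 5 fell with ChREBPβ at 2 mM, and 3 rose and 3 fell at 11 mM. These shares of 53.3% and 40% were near the background of 44.1% and 33.4% of all tested genes. Ifnar1, a chain of the type I interferon receptor, rose at 11 mM (0.27 ± 0.05, adjusted p = 1.02e-04, edgeR). At 2 mM it differed by nearly the same 0.26 ± 0.05 (adjusted p = 1.63e-04), without overlap but just under the 1.2-fold limit. Ifnar2, its partner, differed by -0.03 ± 0.07 and 0.01 ± 0.06. Ifngr1, a chain of the interferon-γ receptor, rose at 2 mM (0.30 ± 0.05, adjusted p = 8.76e-05) and differed by 0.14 ± 0.05 at 11 mM. Its partner Ifngr2 differed by -0.24 ± 0.05 at 2 mM (adjusted p = 3.88e-04, edgeR), without overlap but under 1.2-fold, and by -0.08 ± 0.05 at 11 mM. Of the receptor for interferon-λ, Ifnlr1 differed by 0.09 ± 0.09 and 0.00 ± 0.08, and Il10rb fell at 2 mM (-0.32 ± 0.08, adjusted p = 0.00241) and differed by -0.18 ± 0.08 at 11 mM.

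Stat3, which transmits signals of the interleukin-6 family, rose by 0.34 ± 0.04 at 2 mM and 0.50 ± 0.04 at 11 mM on the log2 scale. Ptpn6, a phosphatase that restrains cytokine receptors, fell at 2 mM by 0.35 (adjusted p = 5.38e-05), with -0.12 ± 0.06 at 11 mM.

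Of 13 tested adaptors and factors of nucleic acid sensing, 1 rose and 4 fell at 2 mM, and 3 changed at 11 mM, each downwards. These shares of 38.5% and 23.1% were below the 44.1% and 33.4% of all tested genes. Tmem173 encodes STING, the adaptor of DNA sensing, and fell the most of those named, from 15.7 ± 0.32 to 6.17 ± 0.63 CPM at 2 mM (-1.33 ± 0.11, adjusted p = 1.80e-09) and from 9.52 ± 1.0 to 3.45 ± 0.49 CPM at 11 mM (-1.46 ± 0.11, adjusted p = 1.35e-09). Irf2, an antagonist of Irf1, fell by 0.69 and 0.34, and Ddx41, a helicase linked to DNA sensing, by 0.33 and 0.38 on the log2 scale.

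Of 31 other interferon-stimulated genes, 6 rose and 15 fell at 2 mM, and 7 rose and 11 fell at 11 mM, with median log2 fold changes of -0.24 and -0.15 (67.7% and 58.1% called, against 44.1% and 33.4% of all tested genes). Lgals9, a galectin, rose from 17 ± 0.53 to 133 ± 6.0 CPM at 2 mM (2.97 ± 0.06, adjusted p = 4.45e-19) and from 18.2 ± 1.1 to 178 ± 6.7 CPM at 11 mM (3.29 ± 0.05, adjusted p = 7.74e-20). Lgals3bp, a secreted galectin-binding protein, fell by 0.65 and 0.70, and Sp110, a nuclear body protein, by 0.78 and 0.72.

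Of 23 other antigen presentation genes, 2 rose and 13 fell at 2 mM, and 2 rose and 12 fell at 11 mM, with medians of -0.45 and -0.35 (65.2% and 60.9% called, against the same background). Erap1, which trims peptides in the endoplasmic reticulum, fell from 123 ± 2.3 to 73.7 ± 4.8 CPM at 2 mM (-0.74 ± 0.05, adjusted p = 1.66e-10) and from 109 ± 1.8 to 70.0 ± 3.7 CPM at 11 mM (-0.64 ± 0.05, adjusted p = 1.74e-09). The rat MHC genes went both ways, RT1-CE10 falling by 1.01 and 0.64 and RT1-S3 rising by 0.78 ± 0.07 and 0.76 ± 0.06, although near-identical copies in this family may have shared reads. Ciita, the transactivator of MHC class II, had at most 6 counts in any library.

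Of 17 genes of the NF-kB response, which adenovirus infection can also trigger, 6 rose and 5 fell at 2 mM, and 6 rose and 3 fell at 11 mM, with medians of 0.03 and -0.07 (64.7% and 52.9% called, against the same background). Cx3cl1, a membrane-bound chemokine, rose from 1.91 ± 0.36 to 39.9 ± 0.74 CPM at 2 mM (4.40 ± 0.09, adjusted p = 1.18e-18) and from 3.41 ± 0.29 to 47.5 ± 0.22 CPM at 11 mM (3.79 ± 0.08, adjusted p = 1.80e-18). Cd40, a receptor of the tumour necrosis factor family, rose by 4.35 ± 0.31 and 2.49 ± 0.22, and Nfkbia, the inhibitor that NF-kB itself induces, by 0.51 ± 0.07 and 0.39 ± 0.06.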

How the data were processed

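The authors extracted total RNA from INS-1 832/13 cells, amplified it, sequenced it in paired-end reads and deposited raw counts per gene for 12 libraries, with no normalization. Per the labels, the submitters' processing notes name the Rnor_6.0 build and edgeR, and the aligner and counter are not given in the sources used here. The deposited table also holds the authors' mean signal of each group; it equals the mean of the 3 count columns and was used only for that check. No columns of other samples were present.

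Libraries were grouped by their labels. Library totals were 25754488 to 60531215, so that 3 counts correspond to 0.0512 to 0.110 CPM. The RNA was amplified, so counts are not independent molecules. Same-group libraries differed beyond counting noise (chi-square per degree of freedom 3.13 to 17.5), and each was counted as a separate sample. Counts were analysed in R 4.3.3 with edgeR 4.0.16 (filterByExpr by group, TMM factors, glmQLFit and glmQLFTest, 1 fit over the 4 groups without covariates). Of 28727 named genes 14669 were tested, and p-values were adjusted by the Benjamini-Hochberg method within each comparison. A change was called at an adjusted p under 0.05 and at least 1.2-fold. SEs were taken as the absolute log2 fold change over the square root of F. The fits were tested on simulated data. DESeq2 1.42.0 was an alternative, beside RLE and upper quartile factors, library totals, other filters, other fold limits, a replicate block and leaving out each library. Promoter windows came from RefSeq on GRCr8, matched by symbol with Python 3.11.15, and no coordinate was carried between builds. Ddx58, Dhx58, Ifit2, Mx2, Adar, Isg15, Usp18 and Nlrc5 had no single window.

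Every gene of the set was named, with the value of each library where a gene was called with ChREBPβ and averaged at least 1 CPM. From each further list up to 3 called genes with the smallest adjusted p were named, and the interferon genes and receptors. Genes beyond these, namely Mlxipl, Pklr, Cd68, Csf1r, Ptprc, Ciita, Ifit1, Ifitm1, Ifitm2, Cxcl11 and RT1-A1, were named after values of these data were known. The set and the lists were chosen with earlier results of these data known. Results for some single genes of the lists are not reported here.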

Additional observations from a re-analysis of the deposited data

Results flagged for a closer look

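Stat2 and Irf9 differed between the ChREBPβ and GFP libraries to a different extent at 11 and at 2 mM glucose, by the test of the difference itself. These 2 calls were 6.25% of the set, near the 6.31% of all tested genes. The difference of log2 fold changes was 0.34 ± 0.10 for Stat2 (adjusted p = 0.0438, edgeR) and 0.47 ± 0.14 for Irf9 (adjusted p = 0.0402). Stat2 fell by 0.96 on the log2 scale at 2 mM and by 0.63 at 11 mM, and Irf9 fell by 0.52 at 2 mM and differed by -0.05 at 11 mM. Both genes also fell with glucose in the GFP libraries, which enter this difference. Over the leave-one-out fits the value for Stat2 ranged from 0.27 to 0.40 (adjusted p from 0.0173 to 0.144) and for Irf9 from 0.35 to 0.56 (0.0184 to 0.123). Groups of 3 libraries were too small for a search for outlying samples.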

How the results depend on the processing

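No called change reversed its direction under any alternative. With a minimum of 2-fold, 1 of the 32 tested genes was called at 2 mM and 1 at 11 mM. Of all tested genes, 9.93% and 6.76% were called at that limit, a larger share than of the set. Glucose with GFP, glucose with ChREBPβ and the difference between the effects had 0 calls in the set, against 2%, 0.191% and 0.736%. For these last 3 comparisons 0 genes passed an unadjusted p under 0.05 in edgeR at that fold, and DESeq2 also called 0. For glucose with ChREBPβ, 1 gene was called in place of 2 with RLE factors, upper quartile factors, at least 10 counts in every library and the replicate block. Leaving out 1 library at a time gave 16 to 18 calls at 2 mM, 13 to 17 at 11 mM, 5 to 9 for glucose with GFP, 1 to 4 for glucose with ChREBPβ and 0 to 3 for the difference. Of all tested genes, these fits called 41.3% to 44.1% at 2 mM and 30.8% to 33.4% at 11 mM. The 0 arose without GFP 2 mM b or c, ChREBPβ 2 mM c or ChREBPβ 11 mM b, where 4 to 6 genes had an unadjusted p under 0.05 in edgeR. Apart from the 2-fold minimum, 14 of 19 calls at 2 mM, 13 of 17 at 11 mM, 5 of 6 for glucose with GFP, 1 of 2 for glucose with ChREBPβ and 0 of 2 for the difference held under every alternative. After removal of the group means, same-letter libraries correlated between -0.11 and 0.05 and different-letter libraries between -0.09 and 0.16. No pairing by letter was visible. With 3 libraries in a group, this cannot exclude that the letters mark matched experiments. With the replicate block 18, 17, 6, 1 and 2 genes were called, in the order above, against 44%, 33.1%, 20%, 3.73% and 6.22% of all tested genes. Depth limited Tlr3, Mx1, Oasl, Rsad2 and Tap2, which averaged under 1 CPM.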
